A study of Mus musculus with 9 samples.

Results

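Hox genes encode homeodomain transcription factors that lie side by side in 4 clusters, HoxA, HoxB, HoxC and HoxD, and are numbered by paralog group along each cluster. They are switched on in an order that follows this numbering along the head to tail axis of the embryo, where retinoic acid acts mostly on the low-numbered genes, and trithorax (MLL) and Polycomb complexes keep the resulting on and off states in adult cells. Their proteins bind DNA together with Pbx and Meis partners, and adult tissues of different body levels, connective tissue above all, keep different Hox combinations.

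The Hox genes of sorted pancreatic ductal adenocarcinoma (PDAC) cells were compared between KPF and KPYYF mice. The set was defined as every protein-coding gene of the deposited tables whose symbol is Hox followed by a cluster letter and a paralog number, which gave 39 of 47643 genes, with 11 in HoxA, 10 in HoxB, 9 in HoxC and 9 in HoxD. The alleles of KPF mice include Trp53 frt/+, Pdx-Flp and R26 FSF-CreER/Dual, and KPYYF mice carry the same alleles with Yap flox/flox in addition, so that Flp, driven by a Pdx promoter, starts tumors in the pancreas of both. Mice of both genotypes were given tamoxifen after tumors could be felt, which activates CreER, turns the reporter from EGFP to tdTomato (Tm) and, in KPYYF mice, deletes Yap. The 6 KPF libraries came from GFP+ cells that had kept Yap, and the 3 KPYYF libraries from Tm+ cells without Yap. The paper describes the sequenced cells as coming from relapsed nodules of tamoxifen-treated tumors. It reports that nodules of Tm+ cells without Yap grew in KPYYF mice after extended tamoxifen. Whether a difference goes with the Yap allele, the loss of Yap, such relapse or the color that was sorted cannot be told apart here. The sex and age of the mice behind each library were not given in the sources used here. KPF libraries 4504h and 4504s share a mouse number. Nothing else in the labels ties libraries to a shared animal or batch.

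Each library held between 8116539 and 9635514 reads on genes, and with polyA-primed 3′ end libraries a count of 0 allowed up to 3 reads, or 0.292 to 0.437 CPM (counts scaled by the reads on genes of each library times its TMM factor), which covers counting error only. Yap1, the deleted gene, lay between 41.8 and 151 CPM in KPF libraries and between 0.712 and 7.12 CPM in KPYYF libraries, the direction that the genotypes give. Its 3′ reads need not lie in the deleted part, whose position was not given in the sources used here. The 7 epithelial markers summed to between 3198 and 10978 CPM in KPF and between 551 and 1819 CPM in KPYYF libraries. These genes were thus present in both but lower in the latter, and the cells were sorted by GFP or Tm and not by them. Reads of Xist, which is expressed in female cells, ran from 71 to 10933 in KPF and from 3452 to 16108 in KPYYF libraries. KPF libraries 4269, 4515 and 4601 had 79, 71 and 159, and 4435, 4504h and 4504s had 10933, 7434 and 5878. Pairs of libraries within a group differed by more than sampling noise in every case, with 73.0 to 212 for the chi-square per degree of freedom and 97.4 for the pair of mouse 4504.

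The Hox genes were sparse. They took 2673 reads in all, and 10 of the 39 had no read in any library, 20 had between 2 and 77, and 9 reached the 100 reads over the 9 libraries that testing required. Of the 47643 genes in the tables, 51.9% had no read. The 29 Hox genes with reads were not spread evenly along the clusters. Paralog groups 4 and 5 took 682 and 946 reads, which is 25.5% and 35.4% of the total. The central groups 4 to 8 together held 78.8%, the anterior groups 1 to 3 15.6% and the posterior groups 9 to 13 5.65%. By cluster, HoxA held 42.2%, HoxB 38.7%, HoxC 15.8% and HoxD 3.25% of the reads. These shares are of reads at 3′ ends, which are not scaled by gene length.

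**Figure D1:**
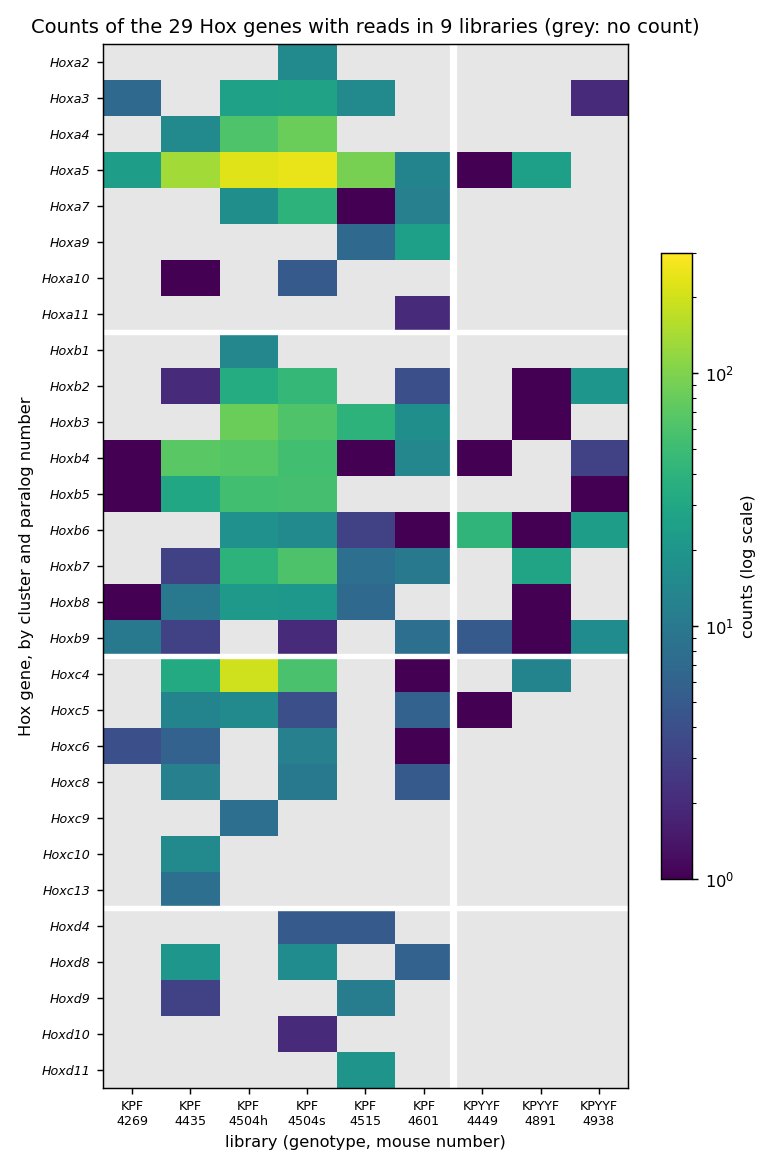
Counts of the 29 Hox genes with reads (rows, by cluster and paralog number) in the 6 KPF and 3 KPYYF libraries (columns), on a log color scale with grey for no count. The highest count of any gene, 246 of Hoxa5, and the highest of Hoxc4, 197, lie in the columns of mouse 4504, and the HoxD rows hold no KPYYF count.

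Most Hox reads came from KPF tumors, and most of those from one mouse. Summed over the 39 genes, the KPF libraries ran from 4.67 CPM (4269) over a median of 31.1 to 95.6 CPM (4504s), and the KPYYF libraries held 5.94 (4449), 7.76 (4891) and 7.23 CPM (4938). The means were 45.2 ± 38.6 CPM (SD, n = 6) and 6.98 ± 0.939 CPM (SD, n = 3). The groups overlapped, since KPF library 4269 lay under every KPYYF library, while the other 5 KPF libraries, from 18.2 CPM upward, lay above them. Libraries 4504h (90.3 CPM) and 4504s (95.6 CPM) alone held 64.4% of all Hox reads, and the 3 KPYYF libraries 7.00%. Without that mouse the KPF mean was 21.3 ± 14.2 CPM (SD, n = 4). In bulk samples, fewer cells with Hox transcripts and fewer transcripts in each cell cannot be told apart.

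The clusters differed in how the groups lay. HoxA was at 3.02 to 47.4 CPM in KPF libraries and at 0.119, 2.73 and 0.219 CPM in KPYYF libraries 4449, 4891 and 4938, so that all KPYYF values lay under all KPF values. The gap was narrow, with 25 reads in KPYYF library 4891 and 31 in KPF library 4269. How often sums of other genes separate in this way was not computed. Hoxa5 alone made up 67.8% of the HoxA reads. HoxB was at 1.26 to 36.0 CPM in KPF libraries and at 5.70, 3.61 and 7.01 CPM in KPYYF libraries, which lie among the lower KPF values. HoxC ran from 0 to 22.5 CPM in KPF libraries and reached 1.42 CPM in KPYYF library 4891. HoxD gave 87 reads, all in KPF libraries 4435, 4504s, 4515 and 4601, where it reached 3.87 CPM, and none in KPF libraries 4269 and 4504h or in any KPYYF library. Since the genes and clusters were chosen with results known, no test was made on these sums.

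**Figure D2:**
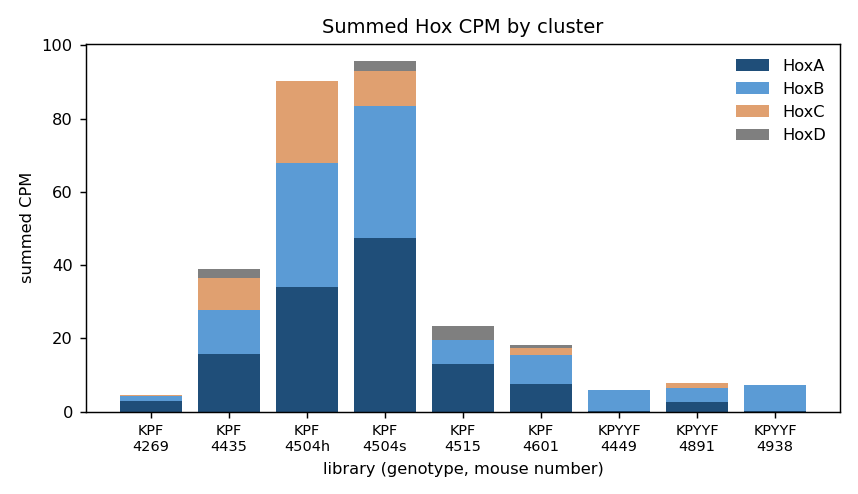
Summed CPM of the Hox genes in each library, stacked by cluster. The 2 libraries of mouse 4504 reach 90.3 and 95.6 CPM, the other KPF libraries 4.67 to 38.9 CPM, and the KPYYF libraries 5.94 to 7.76 CPM, of which HoxB makes up 3.61 to 7.01 CPM.

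More Hox genes were seen in most KPF libraries than in KPYYF libraries. At least 1 read was found for 7 (4269), 17 (4435), 15 (4504h), 21 (4504s), 12 (4515) and 15 (4601) of the 39 genes in KPF libraries, and for 5 (4449), 8 (4891) and 6 (4938) in KPYYF libraries. At least 10 reads were found for 2 to 16 genes in KPF and for 1 to 3 genes in KPYYF libraries. The mean CPM was lower in KPYYF than in KPF libraries for 27 of the 29 genes with reads, and 17 of the 29 had no KPYYF read. The 29 include 9 genes with at least 100 reads, and of the 20 with fewer, 19 had a lower mean. Sparse genes of these tables leaned the same way, since among the 8820 genes with 1 to 99 reads 70.2% had a lower mean in KPYYF libraries and 49.9% had no KPYYF read.

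Testing with the quasi-likelihood test of edgeR across 14105 genes left no Hox gene with a Benjamini-Hochberg adjusted p under 0.05 in either direction, against 0.794% of all tested genes lower and 0.305% higher in KPYYF cells. By an unadjusted p under 0.05 with a change of more than 2-fold, 5 Hox genes were lower (Hoxa4, Hoxa5, Hoxb3, Hoxb4 and Hoxb5) and 0 were higher, where 9.2% of all tested genes were lower and 4.2% higher by edgeR. The same 5 were lower by DESeq2, which also gave Hoxa5 and Hoxb3 an adjusted p under 0.05, and 1, Hoxa5, was lower by limma-voom, which gave no adjusted p under 0.05. The 5 are 55.6% of the 9 tested genes and 12.8% of the 39. Most of the 9 reached 100 reads through KPF libraries alone, so a lower KPYYF value was part of how they passed, and neither share supports a statement on the Hox genes as a set. No tested Hox gene had all KPYYF libraries below or all above the KPF libraries, which 5.18% and 3.92% of all tested genes had. With libraries 4504h and 4504s of the shared mouse summed, Hoxa5 and Hoxb3 kept this call, while Hoxa4, Hoxb4 and Hoxb5 had an unadjusted p of 0.0565, 0.0649 and 0.0765 by edgeR. The 5 calls depended on single libraries. There were 0 without KPYYF library 4449, where the log2 fold changes of Hoxa4, Hoxa5, Hoxb3, Hoxb4 and Hoxb5 were -7.73, -3.27, -5.79, -4.38 and -5.20 with an unadjusted p of 0.0590 to 0.109 by edgeR. There were 2 without KPF library 4504h, KPF library 4504s or KPYYF library 4938, 3 without KPF library 4435 and 4 without KPYYF library 4891, where Hoxb7 and Hoxc4 joined Hoxa5 and Hoxb3. Without both libraries of mouse 4504, Hoxa5 was the 1 Hox gene left with 100 reads, and 0 were lower.

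Hoxa5 and Hoxb4 were the called genes with a promoter entry in RefSeq (GRCm38.p6), and their windows, from 250 bases before to 50 after the transcription start, are shown because paralog groups 4 and 5 carried the reads. Capitals mark AGGTCA, the repeated unit of retinoic acid response elements and other nuclear receptor sites, searched on both strands. Hoxa5 is on the minus strand (chr6:52204538-52204837) and holds it once on its own strand. Hoxb4 is on the plus strand (chr11:96318017-96318316) and holds it once on the opposite strand, read as TGACCT.
Hoxa5: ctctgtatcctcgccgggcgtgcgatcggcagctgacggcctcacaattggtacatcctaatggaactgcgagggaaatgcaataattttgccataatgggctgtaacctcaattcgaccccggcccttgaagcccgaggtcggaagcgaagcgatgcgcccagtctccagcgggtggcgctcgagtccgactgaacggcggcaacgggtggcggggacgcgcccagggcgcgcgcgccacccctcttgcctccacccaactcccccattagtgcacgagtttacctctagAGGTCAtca
Hoxb4: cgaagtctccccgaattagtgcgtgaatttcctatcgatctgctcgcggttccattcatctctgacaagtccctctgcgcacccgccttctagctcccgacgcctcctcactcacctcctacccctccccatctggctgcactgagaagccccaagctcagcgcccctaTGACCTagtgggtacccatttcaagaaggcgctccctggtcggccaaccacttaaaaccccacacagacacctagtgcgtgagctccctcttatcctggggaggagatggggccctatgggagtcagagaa

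AGGTCA stood in 7 of the 24 Hox windows, which cover 22 genes, and in 16.3% of all 32851 windows. CATTCC, the core motif of the TEAD factors that carry Yap to DNA, was in 2 of the 24 Hox windows and in 14.7% of all windows. The Hox-Pbx motif TGATNNAT was in 4 and in 8.85%. Neither of these motifs was found in the windows printed here. The Hox windows held a median of 14.5 CpG and all windows 7. A match of so few letters is a description of the window and not a binding site.

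Hoxa5 (ENSMUSG00000038253), which patterns the lung, the foregut mesenchyme and the neck vertebrae, was the Hox gene with the most reads over the 9 libraries. It lay between 1.89 CPM (4601) and 28.0 CPM (4504s) in KPF libraries, with a median of 12.2 CPM, and at 0.119 (4449), 2.73 (4891) and 0 CPM (4938) in KPYYF libraries. KPYYF library 4891, with 25 reads, stood above KPF libraries 4269 (24 reads) and 4601 (13 reads), and the remaining KPYYF libraries stood below every KPF library. The log2 fold change of KPYYF against KPF was -3.78 (SE 1.42), with an unadjusted p = 0.0196 and an adjusted p = 0.207 by edgeR. An exact permutation test (two-sided, on log2 CPM) gave an unadjusted p = 0.0357, where 0.0119 was the smallest p that 6 against 3 libraries allow. Here and below, that test counted libraries 4504h and 4504s of the shared mouse as independent, so its p can be too small. KPYYF library 4891 held 25 of the 26 KPYYF reads, and without it the log2 fold change was -7.54 (edgeR adjusted p = 0.0889), while without mouse 4504 it was -2.90. Over 18 other ways of fitting, Hoxa5 was lower by the 2-fold rule in 16, with adjusted p from 0.0198 (DESeq2) to 0.510 (without mouse 4504).

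Hoxa4 (ENSMUSG00000000942), its neighbor in the cluster and like Hoxa5 a gene of neck and upper trunk identity, was found in 3 of the 6 KPF libraries. KPF libraries 4435, 4504h and 4504s held 15, 63 and 83 reads, and the others, like all KPYYF libraries, held 0. The KPF mean was 2.90 ± 4.06 CPM (SD, n = 6), with a median of 0.768 CPM. Against the limit of 3 reads in each KPYYF library, the KPYYF mean was at least 8.60-fold lower than the KPF mean. The bound rests on mouse 4504, since it was 4.72-fold without library 4504s and 1.14-fold without both of its libraries. The edgeR test gave an unadjusted p = 0.0342 and an adjusted p = 0.259, while the exact permutation p was 0.321, as KPF libraries 4269, 4515 and 4601 were also at 0.

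In HoxB, 3 adjacent genes were called lower by the same rule. Hoxb3 (ENSMUSG00000048763), a gene of the hindbrain and pharyngeal arches, had 83 (4504h), 63 (4504s), 40 (4515) and 17 reads (4601) in KPF libraries and none in KPF libraries 4269 and 4435. Its single KPYYF read came from library 4891, without which the KPYYF group has none. This gives a ratio of KPF to KPYYF of 99.4, with a 95% counting interval of 17.6 to 3946. That interval pools the reads of each group and leaves out the spread between mice, and most of the KPF reads came from mouse 4504. By edgeR the unadjusted p was 0.0268 and the adjusted p 0.232, and the exact permutation p was 0.167.

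Hoxb4 (ENSMUSG00000038692), known for expanding blood stem cells when overexpressed, ran from 0.0973 CPM (4269) to 7.07 CPM (4435) in KPF libraries, with a median of 4.04 CPM. The KPYYF libraries were at 0.119 (4449), 0 (4891) and 0.329 CPM (4938), which is 4 reads in all. KPF libraries 4269 and 4515, with 1 read each, fell within the KPYYF range and the other 4 lay above it. The log2 fold change was -4.51 (SE 2.00, edgeR unadjusted p = 0.0421, adjusted p = 0.283), and the exact permutation p was 0.131. Leaving out KPYYF library 4938 moved the log2 fold change to -5.69, and leaving out 4891 moved it to -3.96.

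Hoxb5 (ENSMUSG00000038700), which acts in neural crest cells of the gut and is used as a mark of long-lived blood stem cells, had 30, 53 and 56 reads in KPF libraries 4435, 4504h and 4504s, 1 read in 4269 and none in 4515 and 4601. KPYYF library 4938 held the 1 KPYYF read, and without it the KPYYF group has none. The ratio of KPF to KPYYF was 68.6 with a 95% counting interval of 12.1 to 2727, which again leaves out the spread between mice. Most of the KPF reads came from mouse 4504. The edgeR unadjusted p was 0.0479 and the adjusted p 0.303. The exact permutation p was 0.310. Hoxa4, Hoxb4 and Hoxb5 thus shared the same KPF libraries, 4435, 4504h and 4504s, as their main source of reads, whereas Hoxb3 lacked 4435. Libraries 4435, 4504h and 4504s are also the KPF libraries with at least 1000 Xist reads and with the highest summed Hox CPM. Whether this goes with sex was not tested.

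**Figure D3:**
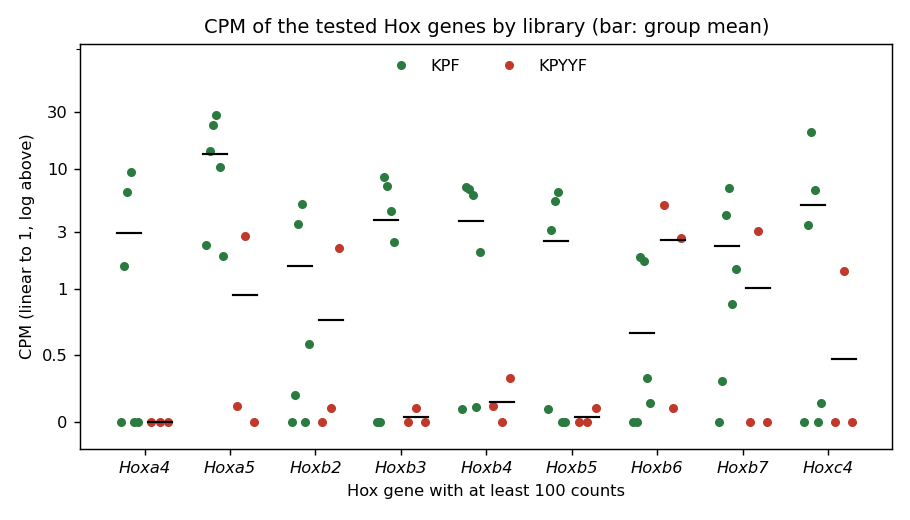
CPM of the 9 Hox genes with at least 100 reads in each KPF (green) and KPYYF (red) library, with bars at the group means and an axis that is linear up to 1 CPM and logarithmic above. Red and green points overlap for every gene, and the red mean is above the green mean for Hoxb6 alone.

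The other 4 tested genes were not called in either direction. Hoxb6 (ENSMUSG00000000690), a trunk-level gene, was the 1 tested Hox gene with a higher mean in KPYYF libraries. It had 42 (4449), 1 (4891) and 24 reads (4938) there and 18 (4504h), 15 (4504s), 3 (4515), 1 (4601), 0 (4269) and 0 reads (4435) in KPF libraries, so that 2 of the 3 KPYYF libraries lay above every KPF library. Its log2 fold change was 1.92 (SE 1.72, edgeR unadjusted p = 0.285, adjusted p = 0.646). Hoxb7 (ENSMUSG00000038721), whose promoter is widely used to mark the ureteric bud, had all 28 of its KPYYF reads in library 4891 and 0 to 61 reads in KPF libraries, with a log2 fold change of -1.15 (SE 1.99, edgeR unadjusted p = 0.573, adjusted p = 0.842).

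Hoxb2 (ENSMUSG00000075588), a hindbrain gene, had 20 of its 21 KPYYF reads in library 4938, against 34 and 45 reads in KPF libraries 4504h and 4504s and at most 4 in the other KPF libraries. Its log2 fold change was -1.01 (SE 2.08, edgeR unadjusted p = 0.634, adjusted p = 0.871). Hoxc4 (ENSMUSG00000075394), the HoxC member of paralog group 4, had 197 and 58 reads in the libraries 4504h and 4504s of 1 mouse, 33 in KPF library 4435, 13 in KPYYF library 4891 and at most 1 elsewhere. Its log2 fold change was -3.37 (SE 2.35, edgeR unadjusted p = 0.175, adjusted p = 0.529).

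The Hox reads of the KPYYF libraries lay in few genes. Library 4449 held 50 Hox reads, of which 42 were Hoxb6 and 5 Hoxb9. Library 4891 held 71, mainly Hoxb7 with 28, Hoxa5 with 25 and Hoxc4 with 13. Library 4938 held 66, mainly Hoxb6 with 24, Hoxb2 with 20 and Hoxb9 with 16. No gene had at least 10 reads in all KPYYF libraries, and Hoxb6 had them in 2. The pair of libraries from KPF mouse 4504 shared their main genes, Hoxa5, Hoxa4, Hoxb3 and Hoxb4 among them, yet Hoxc4 stood at 20.1 and 6.61 CPM and Hoxb1 at 14 and 0 reads.

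The 30 genes with under 100 reads were not tested, and 8 of the 20 with any reads had them in a single library, compared with 37.7% of all genes with 1 to 99 reads. The largest totals were those of Hoxa3 (77), a gene of the thymus and parathyroid, Hoxa7 (70), Hoxb8 (62), Hoxb9 (45), Hoxd8 (42), Hoxc5 (39) and Hoxa9 (32), a partner of Meis1 in leukemia. Hoxb9 was, beside Hoxb6, the other Hox gene with a higher KPYYF mean, with 5 (4449), 1 (4891) and 16 reads (4938) in KPYYF libraries and 10, 3, 0, 2, 0 and 8 reads in KPF libraries 4269, 4435, 4504h, 4504s, 4515 and 4601. Hoxc8 had 27 reads, Hoxc6 23, Hoxc9 8, Hoxd9 14, Hoxd4 10, Hoxa10 6, and Hoxa11 and Hoxd10 2 each. Like Hoxa11, Hoxc9 and Hoxd10, the rest had all of their reads in 1 library, with 19 reads of Hoxd11 in KPF library 4515, 15 of Hoxa2 in 4504s, 14 of Hoxb1 in 4504h, and 15 of Hoxc10 and 8 of Hoxc13 in 4435.

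Genes with no read in any library included Hoxa6, Hoxa13, Hoxb13, Hoxc11, Hoxc12, Hoxd1, Hoxd3, Hoxd12 and Hoxd13. They include the digit and genital genes Hoxa13 and Hoxd13 and the prostate and hindgut gene Hoxb13, and paralog group 12 had no read at all. A count of 0 allows up to 0.437 CPM in KPF library 4601, the highest such limit, and whether transcripts exist below it was not detectable at this depth.

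The clusters lie at chr6:52155590-52260880 (HoxA), chr11:96194316-96368256 (HoxB), chr15:102921103-103036852 (HoxC) and chr2:74668310-74765142 (HoxD) of GRCm38. Antisense transcripts run through them. The last 500 exonic bases of Hoxb2 (100%), Hoxb3 (98.6%) and Hoxa4 (51%) overlap exons of genes on the other strand (Hoxb3os for the first pair and Gm29430 for Hoxa4), as do those of Hoxa3 and Hoxa7 (both 100%) with Hoxaas2 and Hoxaas3. The strand setting of the counting was not given in the sources used here, so for these genes sense and antisense reads cannot be told apart. No tested Hox gene had such an overlap on its own strand.

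Other RNA genes inside the clusters were sparser still. Of 16 found in the tables, 10 had no read, among them Hotair, Hottip, Haglr and the precursors of the miR-10 and miR-196 families, which polyA-primed libraries capture poorly. Hotairm1, a myeloid-associated RNA of HoxA, was the 1 that could be tested, with 5.83 ± 5.09 CPM (SD, n = 6) in KPF and 1.86 ± 1.81 CPM (SD, n = 3) in KPYYF libraries (log2 fold change -1.64, SE 1.39, edgeR unadjusted p = 0.258, adjusted p = 0.620).

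Genes that flank the clusters were mostly not called. Of 16 tested, 2 were lower and 0 higher by the 2-fold rule in edgeR, where 9.2% and 4.2% of all tested genes were. An adjusted p under 0.05 was found for 0 by edgeR or limma-voom and for 2 by DESeq2. Skap2, an adaptor protein gene beside HoxA, was at 74.0 to 161 CPM in KPF and at 41.0, 49.9 and 49.1 CPM in KPYYF libraries (log2 fold change -1.20, SE 0.33, edgeR unadjusted p = 0.0031, adjusted p = 0.105). Its groups did not overlap, and all KPYYF values lay below all KPF values for 5.18% of all tested genes. Atp5g2, an ATP synthase subunit gene near HoxC, was at 4.52 to 16.8 CPM in KPF and at 0, 0.547 and 0.658 CPM in KPYYF libraries (log2 fold change -4.35, SE 1.25, edgeR unadjusted p = 0.0040, adjusted p = 0.115). Genes of this subunit family have near-identical copies, so its counts are uncertain.

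The genes of the partners of Hox proteins differed widely in level, and those tested were mostly not called. Of the 9 Pbx, Meis and Pknox genes 7 were tested, while Pbx4 and Pknox2 had 1 and 98 reads in all. By the 2-fold rule in edgeR 0 were lower and 1 was higher, where 9.2% and 4.2% of all tested genes were. An adjusted p under 0.05 was found for 0 by edgeR or limma-voom and for 1 by DESeq2. Pbx3 lay between 32.7 and 81.8 CPM in KPF libraries, with a median of 62.5 CPM, and at 105 (4449), 244 (4891) and 96.3 CPM (4938) in KPYYF libraries. All KPYYF values were above all KPF values, as for 3.92% of all tested genes. The log2 fold change was 1.28 (SE 0.36, edgeR unadjusted p = 0.0035, adjusted p = 0.110). Meis1, the partner of many central and posterior Hox proteins, was at 18.6 ± 9.71 CPM (SD, n = 6) in KPF and 21.8 ± 7.43 CPM (SD, n = 3) in KPYYF libraries (edgeR adjusted p = 0.891).

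Of the 24 tested Polycomb and MLL genes 0 were called by the 2-fold rule in edgeR or DESeq2 and 1 was in limma-voom, and 0 had an adjusted p under 0.05 by any of the 3 tools. In edgeR 2 of them, Bmi1 and Rnf2, had an unadjusted p under 0.05 with less than a 2-fold change. Of the related ParaHox, caudal, Evx and Mnx genes, 5 of 9 had no read, and Pdx1, the pancreas gene of the ParaHox cluster, was the 1 tested, with 20.6 ± 11.2 CPM (SD, n = 6) in KPF and 26.7 ± 9.07 CPM (SD, n = 3) in KPYYF libraries (edgeR adjusted p = 0.784).

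Genes that make, carry or break down retinoic acid moved in both directions, and those of its receptors, Rara, Rarb, Rarg and Rxra, were not called by edgeR. Of 12 tested, receptors included, 5 were lower and 3 higher by the 2-fold rule in edgeR, where 9.2% and 4.2% of all tested genes were. By adjusted p, 1 was lower and 1 higher in edgeR (0.794% and 0.305% of all tested genes), 5 and 3 in DESeq2 and 0 and 0 in limma-voom, where 7 had an unadjusted p under 0.05. Crabp1, a retinoic acid binding protein of the cytoplasm, rose from between 1.22 and 4.78 CPM in KPF libraries to 24.8 (4449), 607 (4891) and 1134 CPM (4938) in KPYYF libraries (log2 fold change 7.83, SE 0.98, edgeR adjusted p = 0.0141). Rdh10, which makes retinaldehyde from retinol, fell from between 158 and 364 CPM to 73.4, 59.4 and 85.5 CPM (log2 fold change -1.75, SE 0.34, edgeR adjusted p = 0.0351). The groups did not overlap for either gene, where 3.92% of all tested genes had all KPYYF libraries above and 5.18% all below. Over the 18 other fits, Crabp1 had an adjusted p under 0.05 in 16, all but limma-voom and the libraries with at least 1000 Xist reads. Rdh10 had one in 9, and lost it with limma-voom, without KPF library 4435, 4504s or 4515 and without any 1 of the 3 KPYYF libraries, among other fits.

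The 3 Aldh1a genes, whose enzymes make retinoic acid from retinaldehyde, were all lower by the 2-fold rule and none by adjusted p. Aldh1a2, the embryonic mesoderm and mesothelium enzyme, lay between 5.16 and 52.1 CPM in KPF libraries and at 0.119, 2.08 and 0 CPM in KPYYF libraries (log2 fold change -4.91, SE 1.37, edgeR unadjusted p = 0.0037, adjusted p = 0.112). Like the summed Hox reads, it was highest in KPF libraries 4504h (52.1 CPM) and 4504s (46.0 CPM). Crabp2, a carrier of retinoic acid to its receptors, stood at 0.195 to 3.32 CPM in KPF and at 2.97, 17.1 and 53.5 CPM in KPYYF libraries (log2 fold change 3.79, SE 0.95, edgeR unadjusted p = 0.0015, adjusted p = 0.0777). The retinoic acid degrading enzymes went apart, with Cyp26a1 called lower and Cyp26b1 higher by the 2-fold rule.

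**Figure D4:**
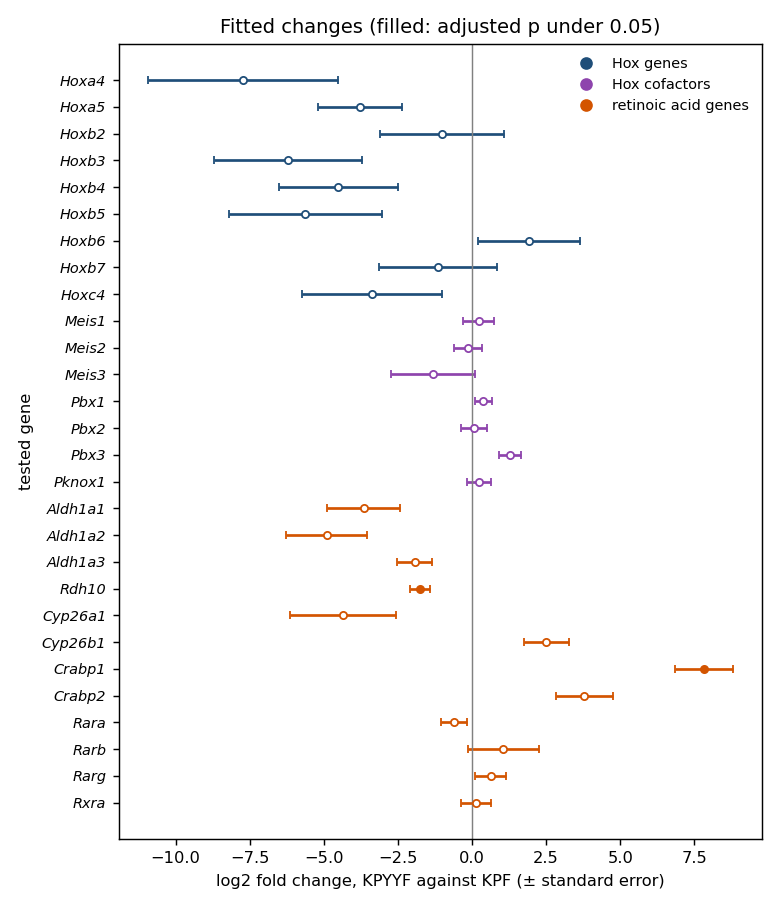
Log2 fold change of KPYYF against KPF (points, with SE as bars) from edgeR for the 9 tested Hox genes, 7 Hox cofactors and 12 retinoic acid genes, filled where the adjusted p is under 0.05. The bars of the Hox genes are wider than those of the cofactors, and Crabp1 and Rdh10 are the filled points. The fitted values of Hoxa4, Hoxb3 and Hoxb5, with 0 or 1 KPYYF reads, depend on the prior count.

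Markers of other cells that a tumor sort could hold were read beside the Hox genes. Of 5 mesothelial markers 4 were lower by the 2-fold rule in edgeR (9.2% of all tested genes) and 1, Upk1b, also by adjusted p (0.0277, against 0.794% of all tested genes). The adjusted p of Upk1b was under 0.05 in 11 of 18 other fits and was lost, among others, without KPF library 4435 or 4504s, without KPYYF library 4891 or 4938 and without mouse 4504. Their sum ran from 352 to 2753 CPM in KPF and from 40.8 to 209 CPM in KPYYF libraries and was mostly Msln, which PDAC cells also express. Without Msln, a step taken after the values were seen, the other 4 markers summed to 28.5, 46.7, 121, 131, 28.1 and 9.77 CPM in KPF libraries 4269, 4435, 4504h, 4504s, 4515 and 4601, and to 5.46, 7.11 and 0.219 CPM in KPYYF libraries 4449, 4891 and 4938. The highest values were in both libraries of mouse 4504, as for the Hox genes. Library 4269 was an exception, with the lowest Hox sum and a mesothelial sum like that of 4515. Mesothelial markers were not alone in this. The Schwann cell markers, mostly S100b, also had their highest sums in 4504h (97.0 CPM) and 4504s (76.8 CPM). Within KPF, so did the fibroblast markers (861 and 1621 CPM), with KPYYF library 4891 at 1210 CPM.

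The 9 fibroblast markers summed to between 280 and 1621 CPM in KPF and between 325 and 1210 CPM in KPYYF libraries, so the groups overlapped, with the highest value also in 4504s. The 6 endothelial markers summed to between 7.20 and 53.6 CPM in KPF and between 9.18 and 15.0 CPM in KPYYF libraries, and, as with the Hox genes, KPF library 4269 was the lowest. The 7 immune markers ran from 438 to 7257 against 339 to 702 CPM, the 4 Schwann cell markers from 18.1 to 97.0 against 0.547 to 7.36 CPM with Sox10 at 0, the 5 islet markers from 0.511 to 49.9 against 2.63 to 11.2 CPM, the 5 acinar markers from 40.6 to 7426 against 37.5 to 2875 CPM with Amy2a5 at 0, and the 5 smooth muscle and pericyte markers from 31.2 to 268 against 32.4 to 183 CPM. Aldh1a2 and Wt1 are also expressed by mesothelial cells. The part of any of these cells in the Hox reads was not tested.

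**Figure D5:**
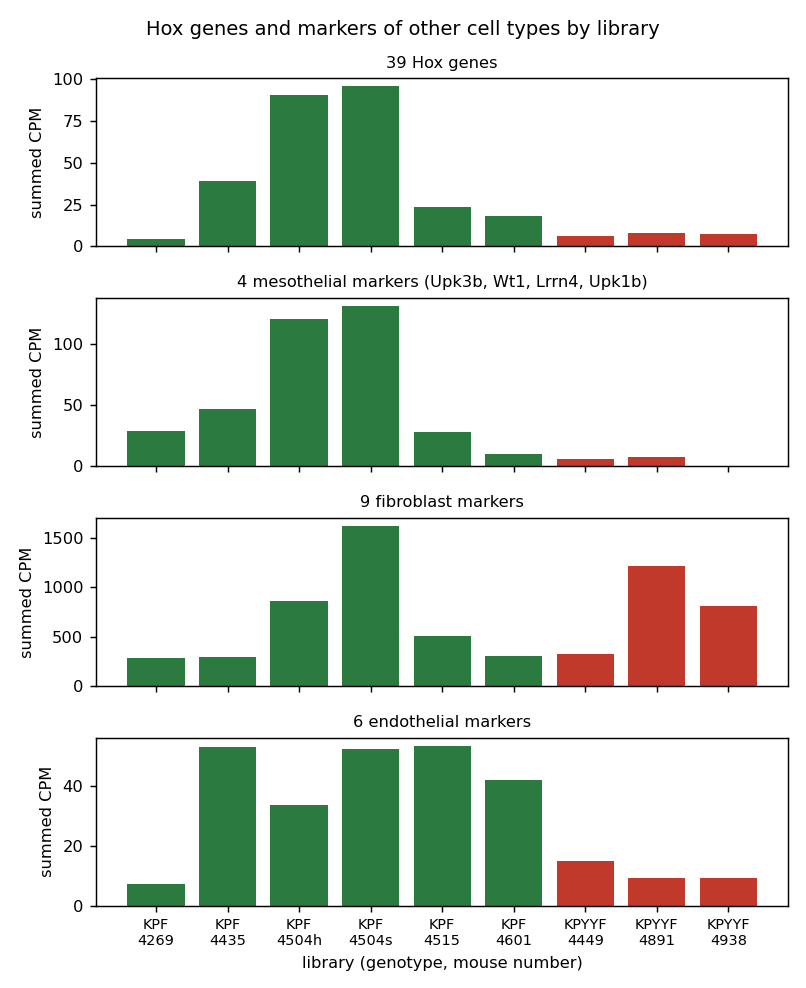
Summed CPM of the 39 Hox genes and of 4 mesothelial, 9 fibroblast and 6 endothelial markers in each KPF (green) and KPYYF (red) library. Hox and mesothelial bars are both highest in libraries 4504h and 4504s. The groups overlap in the Hox, fibroblast and endothelial bars. Msln was left out of the mesothelial markers after the values were seen. The Schwann cell markers, not drawn, were also highest in 4504h and 4504s.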

How the data were processed

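RNA of FACS-sorted GFP+ or Tm+ PDAC cells had been turned into Lexogen QuantSeq 3′ Fwd libraries, 6 of KPF and 3 of KPYYF mice. The deposited tables hold raw counts of reads per Ensembl gene, made by the authors with STAR and HTSeq on mm10, per their processing notes; versions, annotation and strand setting were not given in the sources used here. The methods text names array hybridization, which whole-number tables with differing totals do not hold. Symbols and positions came from GENCODE M21 (GRCm38, the build of mm10), with 47224 of 47643 identifiers matched.

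Genes with at least 100 counts over the 9 libraries were normalized by TMM and tested with the quasi-likelihood test of edgeR 4.0.16 (robust, two-sided, no covariates, R 4.3.3), with Benjamini-Hochberg adjustment over all 14105 genes. SEs were derived from the log2 fold change and its F statistic. CPM used reads on genes times the TMM factor, and log2 CPM for exact permutation tests used a prior count of 2. Replicates are separate libraries, mostly of separate mice, and 4504h and 4504s were counted separately in the main test and in the permutation tests. DESeq2 1.42.0, limma-voom (limma 3.58.1), RLE and upper quartile factors, other filters, libraries 4504h and 4504s summed, libraries with at least 1000 Xist reads and each library left out were alternatives, and leaving out mouse 4504 was added after seeing the data. In simulated counts of 13490 genes in groups of this size, edgeR recovered 21% of 4-fold and 56% of 16-fold changes by adjusted p. Of its calls, 2.53% were false. DESeq2 recovered 42% and 70% with 32.1% of its calls false, and limma-voom 19% and 41% with 7.69%. The changed genes were drawn at random from all genes with at least 100 counts, and all libraries were simulated as independent. These rates were not computed for genes as sparse as the Hox genes.

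The members, gene lists and markers were chosen with earlier results of these data known. Named with values were all Hox genes, and up to 4 genes of each list by smallest p among those called. Meis1, Hotairm1 and Pdx1 were named after their values were seen. Some items are not reported here. Figures were drawn with matplotlib 3.10.9.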

Additional observations from a re-analysis of the deposited data

How the results depend on the processing

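The number of Hox genes lower by the 2-fold rule, 5, was 1 with limma-voom, 2 with libraries 4504h and 4504s summed, 0 without mouse 4504 (added after seeing the data) and 0 to 5 when each library was left out. It was 6 without a filter on low counts and with filterByExpr, which add Hoxa7, and 6 in libraries with at least 1000 Xist reads, which adds Hoxc4. The number lower by adjusted p, 0, was 2 with DESeq2 (Hoxa5, adjusted p = 0.0198, and Hoxb3, adjusted p = 0.0330), where 6.68% of all tested genes were lower by adjusted p, and 0 under each other alternative run, leaving out libraries included. The numbers of tested Hox genes with all KPYYF libraries below or above all KPF libraries were each 0 to 1 when a library was left out, since without KPYYF library 4891 Hoxa5 lay below and Hoxb6 above. No log2 fold change of a tested Hox gene changed sign in any alternative fit. No paired analysis was possible because replicate numbers were given in accession order and pair no libraries.

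Depth was limited. Most Hox genes had fewer than 100 reads, a lone read is 0.0973 to 0.146 CPM, and the common biological coefficient of variation was 0.825. Fits without 1 library had as few as 4 tested Hox genes, and the fit without mouse 4504 had 1, so lost calls there partly reflect genes no longer tested. The cause of other lost calls was not tested. KPYYF cells came from 3 mice, and 64.4% of the Hox reads from 1 KPF mouse.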
